A study of Mus musculus with 148 samples.

Results

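The genes described here make up the machinery by which a cell shows fragments of its own proteins at its surface: the classical MHC class I heavy chains H2-K1 and H2-D1, their light chain B2m, both chains of the peptide transporter, Tap1 and Tap2, the loading factor Tapbp, the immunoproteasome subunits Psmb8 and Psmb9, and the transcriptional regulator Nlrc5. They were taken by name and not by a measured value, though with earlier results of these data known. All 9 were found among the 52542 gene rows of the single-cell count tables. Their levels were followed across the immune cell types and tissues of mice with spontaneous lung metastasis of breast cancer.

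In nearly every nucleated cell, proteasomes cut cytosolic proteins into peptides, and the subunits encoded by Psmb8 and Psmb9 replace constitutive subunits to give the immunoproteasome. The TAP1/TAP2 heterodimer carries the peptides into the endoplasmic reticulum, where tapasin, the product of Tapbp, bridges the transporter and the empty class I molecule and favours the loading of stable peptides. The loaded heavy chain and β2-microglobulin then travel to the surface, where they are read by the receptor of CD8 T cells and by inhibitory receptors of NK cells. Interferons raise the whole set, in part through NLRC5, which acts on the promoters of class I and related genes.

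Female PA-GFP C57BL/6 mice, which express a photoactivatable GFP, were injected at 8 weeks of age with 500000 EO771-tdTomato cells, a mouse breast cancer line carrying a red fluorescent protein, into a mammary gland. The primary tumor was resected 3 weeks later, and the lungs were imaged until metastases appeared. Immune cells of 8 groups were sequenced: Normal whole lungs (3 mice), Pre-MET lungs taken while mice carried the primary tumor (3 mice), Relapse-free whole lungs (6 mice), Distal normal tissue as lung sections without visible metastasis (14 mice), MET as lung sections with metastasis (13 mice), photoactivated MET Core (13 mice) and MET Invasive margin (7 mice), and Primary tumors (4 mice). All carry the PA-GFP allele, and every group but Normal received the tumor cell line. Cells were sorted as CD31-CD45+, or as CD31-GFP+ without a CD45 gate for most photoactivated tissue. Distal, Relapse-free and Pre-MET lungs were classed by metastases or red tumor cells not being detected, so tumor cells that escaped detection cannot be told apart from none. The 3 Pre-MET mice are also 3 of the 4 Primary mice, 13 mice gave both MET and Distal tissue, and 6 gave both core and margin. The margin of 1 mouse (mouse 17) carries a photoactivation label that names no metastasis, and 2 of the Relapse-free mice include plates of photoactivated cells.

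The plates held 24020 cells with an annotation by the authors, with at least 500 and in the median 1127.5 unique molecular identifiers (UMIs) per cell. UMIs were summed over the cells of 1 mouse, tissue and annotated cell type, and the 510 sums of immune types with at least 10 cells were used, holding between 5720 and 731354 UMIs. A level is the CPM of the gene, its UMIs scaled to a fixed total of UMIs in the sum as in the usual CPM unit. Since a UMI marks the 3′ end of 1 molecule, it was not divided by gene length. Depth was uneven, because cells of Primary tumors had a median of 3029 UMIs and those of the other groups between 1013.5 and 1130.0. The Normal lungs were sequenced in 1 batch of their own, so batch and group cannot be told apart in any comparison with them. Annotated names were checked against markers, and Foxp3 was highest in T Treg (351 CPM), Ccr7 in DC migDC (4139 CPM), Chil3 in Mac Cd9 (11599 CPM), Gpnmb in Mac Gpnmb (2394 CPM) and S100a8 in Neut Camp (262801 CPM). The type named Erythrocytes held Hba-a1 at 4690.3 CPM but also S100a8 at 40922 CPM and Ptprc, which encodes CD45, at 1897 CPM. The type named Tumor held Krt8 at 302 CPM and no UMI of Epcam or Krt18, so these labels are used below only as names.

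Apart from B2m on chromosome 2 (mm10, chr2:122147686-122153083, plus strand) and Nlrc5 on chromosome 8 (chr8:94434356-94527272, plus strand), the genes lie in the MHC on chromosome 17. From proximal to distal these are Tapbp (chr17:33915899-33929292, plus strand), H2-K1 (chr17:33996017-34000347, minus), Psmb9 (chr17:34181987-34187764, minus), Tap1 (chr17:34187553-34197225, plus), Psmb8 (chr17:34197721-34201454, plus), Tap2 (chr17:34203527-34216321, plus) and H2-D1 (chr17:35262730-35267499, plus). The 200 bases before the RefSeq start of both heavy chain genes and of B2m (GRCm38.p6) are printed because the levels of these 3 genes carry most of the results and because these promoters hold the elements through which interferon, NF-κB and NLRC5 are known to act on class I genes. Capitals mark enhancer A (GGGATTCCC, an NF-κB motif), the core of the interferon response element (GAAANNGAA or GAANNGAAA, on either strand) and the core of the cyclic AMP response element (TGACG, part of the SXY module used by NLRC5). The windows are chr17:34000348-34000547 on the minus strand for H2-K1, chr17:35262894-35263093 on the plus strand for H2-D1 and chr2:122147487-122147686 on the plus strand for B2m.
H2-K1: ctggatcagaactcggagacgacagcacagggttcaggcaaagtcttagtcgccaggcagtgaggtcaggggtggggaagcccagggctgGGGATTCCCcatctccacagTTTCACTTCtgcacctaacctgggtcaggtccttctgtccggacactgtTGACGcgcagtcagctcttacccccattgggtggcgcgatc
H2-D1: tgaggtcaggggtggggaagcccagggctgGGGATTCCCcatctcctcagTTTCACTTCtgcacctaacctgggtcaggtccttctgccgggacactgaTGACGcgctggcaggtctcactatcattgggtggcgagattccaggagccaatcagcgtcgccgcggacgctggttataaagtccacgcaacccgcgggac
B2m: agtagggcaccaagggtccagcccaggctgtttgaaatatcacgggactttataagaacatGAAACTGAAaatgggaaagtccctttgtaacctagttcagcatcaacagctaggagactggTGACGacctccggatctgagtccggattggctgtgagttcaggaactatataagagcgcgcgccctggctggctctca

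Counted from the RefSeq start site, enhancer A began at -110 in H2-K1 and at -170 in H2-D1, followed by the interferon element at -90 and -150 and by TGACG at -41 and -101. These positions depend on the annotated start, and the H2-D1 window lies inside the gene span given above. The heavy chain promoters thus held the same 3 motifs in the same order, and their windows aligned with 211 identical of 239 bases (88.3%). B2m held the interferon element at -139 and no match to enhancer A in these letters. Among windows of 300 bases around the starts of 27025 genes, searched on both strands, enhancer A was present in 0.370%, the interferon core in 14.9%, TGACG in 21.02% and a CCAAT box, another part of class I and related promoters, in 37.9%. Of the remaining genes, Tap1 and Psmb9 are read away from each other and their windows share 275 bases, with TGACG at -86 of Tap1 and at -144 of Psmb9. The Psmb8 window held a GAS motif (TTCNNNGAA, the interferon-gamma activated site, present in 8.47% of windows) at -97. The Tapbp window held none of these motifs but CCAAT, and windows of Tap2 and Nlrc5 were not analysed here.

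Of the heavy chains, H2-K1 varied more between cell types, with a mean over sums that ranged 56.5-fold between the 26 immune cell types with at least 3 sums. This range rests on the few UMIs of Neut Camp, the lowest type: it was 21.5-fold when all cells of a type were pooled, with 41 UMIs and 174.8 CPM in Neut Camp, and 9.17-fold in sums of at least 20 cells, where Neut Lcn2 was lowest. T Treg, the regulatory T cells, held 4384 CPM ± 1093 (SD, n = 7 sums), and DC migDC, the migratory dendritic cells, 3351 CPM ± 807 (n = 3). The 4 Primary tumors gave T Treg sums of 5348, 4166, 5062 and 4165 CPM, the 2 cores 2641 and 3535 CPM and the single margin 5769.8 CPM. Both core sums of T Treg thus lay below all 4 sums of the deeper Primary libraries, and the single margin sum lay above them. All 3 sums of DC migDC (2453, 4015 and 3585 CPM) came from Primary tumors. The part of tissue and depth in the rank of these 2 types was not tested. Cytotoxic cells followed, with 3196 CPM ± 894 (n = 8) in T CD8 Gzma, 3066 CPM ± 963 (n = 7) in T CD8 Lag3, 2936 CPM ± 1164 (n = 6) in NK Xcl1 and 2915 CPM ± 670.3 (n = 40) in NK Ncr1. At the low end, Mac Cd9, in which the alveolar macrophage marker Chil3 was highest, held 610.3 CPM ± 236 (n = 11), Neut Ifit3 602 CPM ± 364 (n = 16) and Neut Lcn2 480.4 CPM ± 294 (n = 24). Neut Camp, neutrophils named for a granule gene, were lowest with sums of 46.7 and 95.8 CPM in Distal tissue, 0 in a margin and 168 CPM in a Relapse-free lung, from 11 UMIs in all. These orders are descriptions, since the cell types were themselves defined by clustering expression, and 24 of the 25 neighbours in the order of H2-K1 lay within the larger of their SDs.

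**Figure D1:**
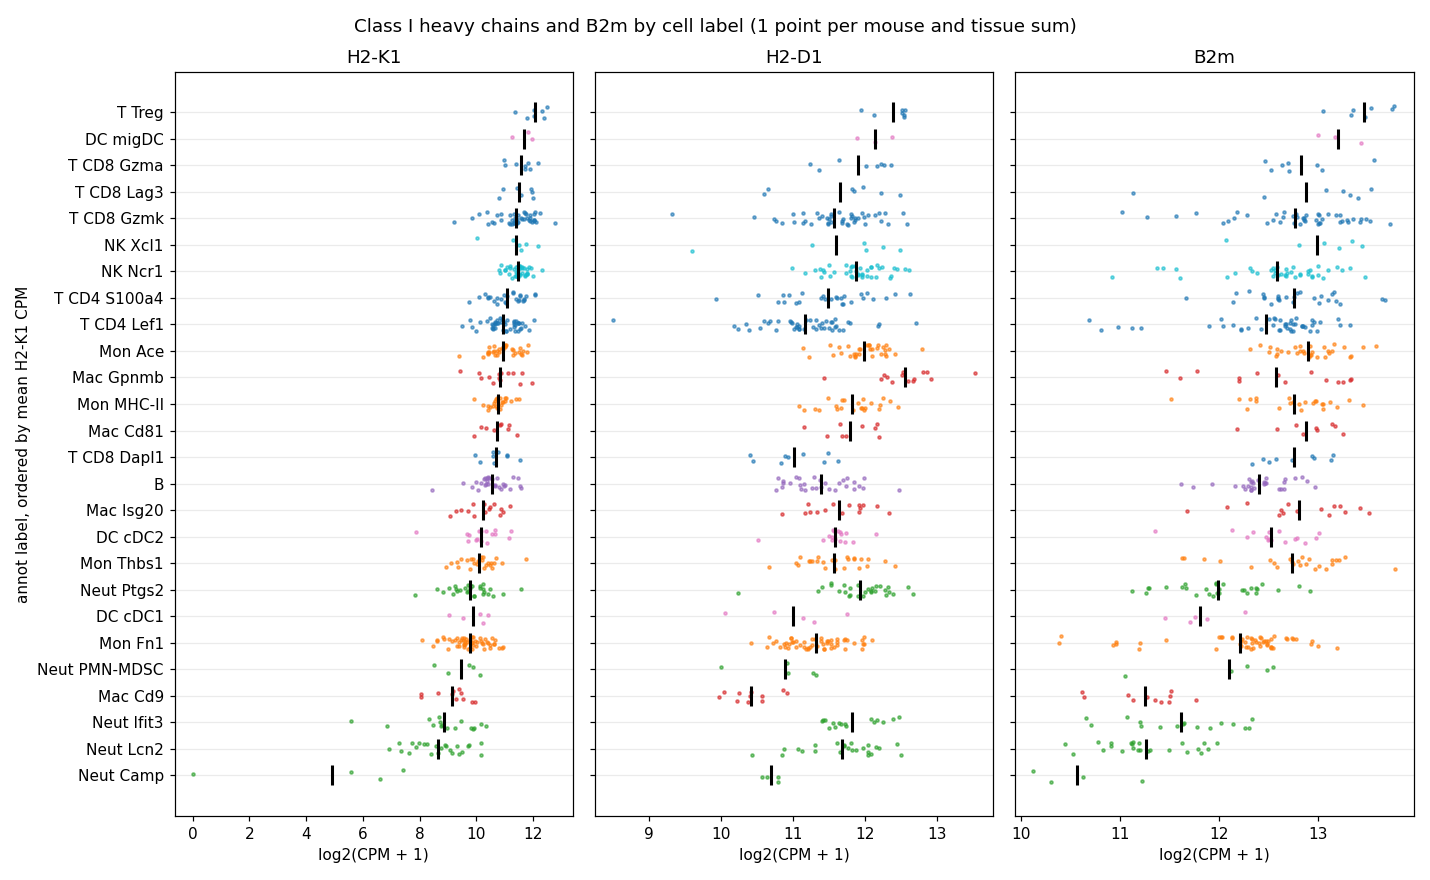
Levels of H2-K1, H2-D1 and B2m as log2(CPM + 1) on the horizontal axis for each immune cell type, ordered by mean H2-K1 and coloured by lineage, with 1 point per sum of cells of a mouse and tissue and a black tick at the mean of the plotted values. The mean CPM of H2-K1 was 4384 in T Treg and 77.6 in Neut Camp, the latter from 11 UMIs, and that of H2-D1 spread 4.48-fold between Mac Gpnmb and Mac Cd9.

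H2-D1, the other heavy chain, was ordered differently. Its level was highest in Mac Gpnmb, the macrophages in which Trem2 was also highest (641 CPM), at 6261 CPM ± 2032 (n = 14), ahead of T Treg at 5416 CPM ± 854 (n = 7), DC migDC at 4522 CPM ± 763 (n = 3) and the monocytes Mon Ace at 4137 CPM ± 952 (n = 32). The Mac Gpnmb sums lay between 4919 and 7404 CPM in the 7 MET samples, at 2761, 6531 and 7693 CPM in 3 cores and at 5883, 4770.4, 6469 and 11766 CPM in 4 margins, so that the level of this cell type overlapped between the regions of the lesion. The lowest H2-D1 levels were those of Mac Cd9 (1398 CPM ± 297, n = 11) and Neut Camp (1663 CPM ± 128, n = 4), only 4.48-fold below the highest. In Neut Camp the H2-D1 sums were 1775 and 1516 CPM in Distal tissue, 1766 CPM in the margin and 1596 CPM in the Relapse-free lung, close to one another where H2-K1 was nearly undetected.

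B2m, the shared light chain, ranged 7.21-fold (4.29-fold in sums of at least 20 cells) and had the highest mean of the members in every immune cell type but Neut Camp, Neut Ifit3 and Neut Lcn2, in which H2-D1 was higher. T Treg led with 11443 CPM ± 1949 (n = 7), with sums of 13736, 10329, 11819.8 and 10443 CPM in Primary tumors, 8470.3 and 11349.9 CPM in cores and 13956 CPM in the margin. DC migDC held 9484 CPM ± 1446 (n = 3), NK Xcl1 8497 CPM ± 2483 (n = 6) and T CD8 Lag3 8443 CPM ± 3375 (n = 7). Neut Lcn2 (2555 CPM ± 764, n = 24), Mac Cd9 (2506 CPM ± 582, n = 11) and Neut Camp (1588 CPM ± 571, n = 4) formed the low end. Together, H2-K1, H2-D1 and B2m made up 2.12% of all UMIs in T Treg, 1.74% in DC migDC, 0.451% in Mac Cd9 and 0.333% in Neut Camp.

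The balance of the heavy chains differed between cell types. The log2 ratio of H2-D1 to H2-K1 UMIs in a sum averaged 0.14 ± 0.63 (SD, n = 7) in T CD8 Lag3, 0.18 ± 0.57 (n = 45) in T CD8 Gzmk, 0.33 ± 0.27 (n = 7) in T Treg and 0.40 ± 0.43 (n = 40) in NK Ncr1. DC migDC lay among these lymphoid types with 0.45 ± 0.40 (n = 3), but all its sums came from Primary tumors, so cell type and tissue cannot be told apart for it. The ratio was 0.84 ± 0.65 (n = 30) in B cells, 1.03 ± 0.46 (n = 32) in Mon Ace, 1.54 ± 0.53 (n = 54) in the monocytes Mon Fn1 and 1.71 ± 0.37 (n = 14) in Mac Gpnmb. The highest ratios were those of neutrophil types, with 2.10 ± 0.91 (n = 29) in Neut Ptgs2, 2.82 ± 1.03 (n = 16) in Neut Ifit3, 2.97 ± 0.75 (n = 24) in Neut Lcn2 and 4.24 ± 0.95 (n = 4) in Neut Camp. The neutrophil type Neut PMN-MDSC was lower, at 1.40 ± 1.02 (n = 5), and lay below Mon Fn1 and Mac Gpnmb. In Primary tumors the ratio was lower in some myeloid types, with 0.13 in the single sum of Neut Ptgs2 and 0.45 ± 0.36 (n = 2) in Mon Ace. It was 0.98 ± 0.39 (n = 4) in DC cDC2, against 1.55 ± 0.32 (n = 3) in cores. In Mon Thbs1 it was 1.11 ± 0.18 (n = 4) against 1.84 ± 0.39 (n = 8). Mon MHC-II went the other way, with 1.08 ± 0.15 (n = 4) against 0.60 ± 0.33 (n = 2). Over the cells of the sums of all tissues, the counts were 7634 H2-D1 against 6992 H2-K1 UMIs in T CD8 Gzmk, a ratio of 1.09, and 7691 against 957 UMIs in Neut Lcn2, a ratio of 8.04. In Neut Camp the counts were 190 and 11 UMIs in the 4 sums, and 397 and 41 UMIs over all its 98 cells.

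Within the same mouse and tissue, where library and batch are shared, neutrophils had a higher H2-D1 to H2-K1 ratio than T cells in 42 of 42 samples, by 2.21 ± 0.92 (SD) on the log2 scale. The ratio was also higher than that of T cells in 39 of 39 samples for macrophages (1.09 ± 0.58), 59 of 61 for monocytes (1.09 ± 0.60), 33 of 36 for dendritic cells (0.64 ± 0.53) and 26 of 30 for B cells (0.57 ± 0.63). NK cells were higher in 26 of 45 samples, with a mean difference of 0.06 ± 0.41. The ratio rests on reads that can be assigned to 1 of the 2 genes: of the 451 stretches of 50 bases in the last 500 bases of the transcript, 2 were shared with another H2 transcript for H2-K1 and 2 for H2-D1, against 267 (59.2%) for the non-classical gene H2-T22. Any difference in capture between both 3′ ends was not tested, so the ratio is read between cell types and not as an absolute balance.

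**Figure D2:**
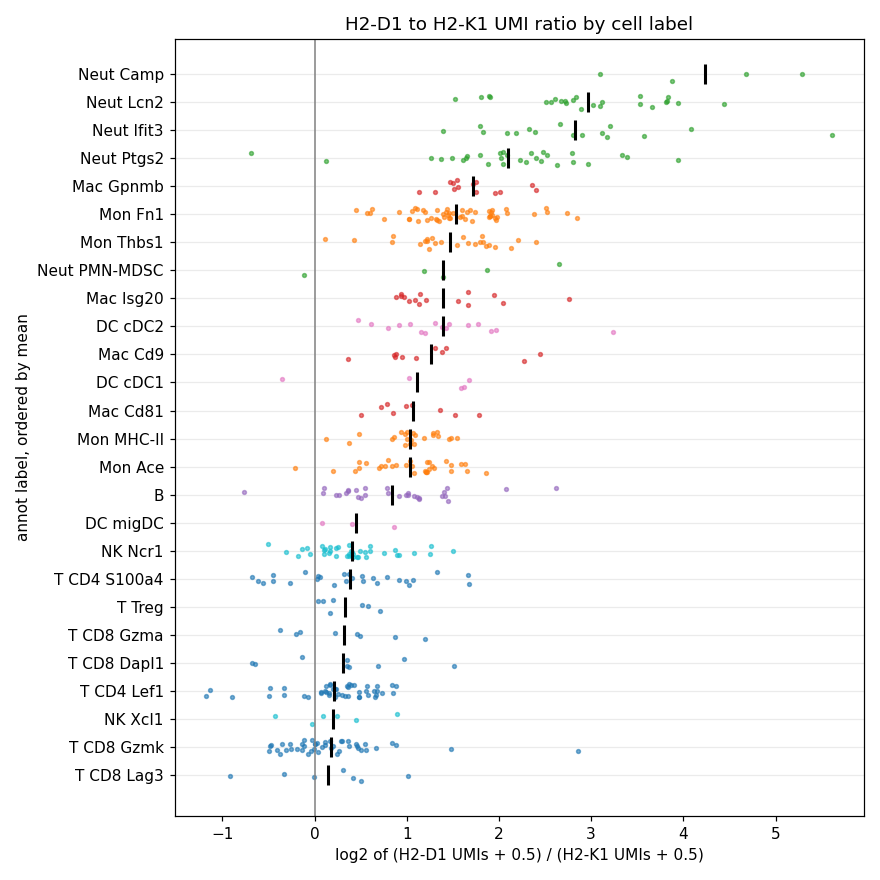
Log2 ratio of H2-D1 to H2-K1 UMIs (0.5 UMI added to each) by immune cell type, ordered by mean and coloured by lineage, with 1 point per sum of cells of a mouse and tissue, a black tick at the mean and a grey line at equality. T and NK cells lie near equality, with 0.14 in T CD8 Lag3. Neutrophil types lie highest, with 4.24 in Neut Camp, except for Neut PMN-MDSC at 1.40.

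The immunoproteasome genes were highest in T CD8 Lag3, T Treg and dendritic cells. Psmb8, which encodes the chymotrypsin-like subunit, averaged 1672 CPM ± 681 (n = 7) in T CD8 Lag3, 1493 CPM ± 595 (n = 16) in the conventional dendritic cells DC cDC2, 1486 CPM ± 854 (n = 3) in DC migDC and 1376 CPM ± 548 (n = 7) in T Treg. It was 654 CPM ± 411 (n = 8) in the cytotoxic T CD8 Gzma, below 911 CPM ± 447 (n = 46) in T CD4 Lef1. The level was 260.1 CPM ± 200.04 (n = 24) in Neut Lcn2, 255 CPM ± 147 (n = 11) in Mac Cd9 and 31.6 CPM ± 38.9 (n = 4, 6 UMIs in all) in Neut Camp, a range of 52.9-fold. With all cells of a type pooled the range of Psmb8 was 15.2-fold, with 25 UMIs and 106.6 CPM in Neut Camp, and in sums of at least 20 cells it was 6.67-fold. Psmb9, which encodes the subunit that takes the place of Psmb6, had lower levels in a similar order, with 591 CPM ± 293 (n = 7) in T Treg, 588 CPM ± 385 (n = 7) in T CD8 Lag3 and 450.4 CPM ± 303 (n = 16) in DC cDC2 against 81.5 CPM ± 63.2 (n = 11) in Mac Cd9.

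Set against the constitutive subunits that they replace, the order was another. The log2 ratio of Psmb8 and Psmb9 to Psmb5 and Psmb6 UMIs was lowest in Mac Gpnmb (-1.22 ± 0.94, n = 14), followed by Neut Camp (-0.79 ± 1.44, n = 4, on 14 against 15 UMIs), Mac Cd9 (-0.57 ± 0.96, n = 11) and Mac Isg20 (-0.47 ± 0.74, n = 15). It was 0.53 ± 0.69 (n = 54) in Mon Fn1, 1.77 ± 0.31 (n = 7) in T Treg, 1.75 ± 0.60 (n = 7) in T CD8 Lag3 and 2.27 ± 1.16 (n = 3) in DC migDC. Neut Ifit3 reached 2.51 ± 1.35 (n = 16), from 303 immunoproteasome against 63 constitutive UMIs in these sums. Other neutrophils were also high, with 2.34 ± 1.85 (n = 29, 774 against 184 UMIs) in Neut Ptgs2 and 1.83 ± 1.45 (n = 24, 673 against 177 UMIs) in Neut Lcn2. The ratios of these neutrophils rest on few constitutive UMIs per sum. Mac Gpnmb, the cell type highest in H2-D1, was thus the lowest in this ratio, with 494 against 1159 UMIs, among the 26 types.

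The transporter, the loading factor and the regulator were far less abundant than B2m and less well resolved. Tap1 was highest in T Treg (422 CPM ± 209, n = 7) and DC migDC (289 CPM ± 165, n = 3) and lowest in Mac Cd9 (35.7 CPM ± 48.6, n = 11) and Neut Camp (33.7 CPM ± 44.2, n = 4). Tap2 was also highest in T Treg, at 402 CPM ± 275 (n = 7), and DC cDC1 followed with 263 CPM ± 227 (n = 5). Tapbp led in DC migDC (525 CPM ± 99.7, n = 3), ahead of T Treg (383 CPM ± 198, n = 7) and Mac Gpnmb (315 CPM ± 179.9, n = 14), and was lowest in T CD8 Gzma (90.5 CPM ± 131, n = 8). For all of Tap1, Tap2, Tapbp, Psmb8, Psmb9 and Nlrc5, 25 of 25 neighbours in the order lay within the larger SD.

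Nlrc5 was near the detection limit. Its highest mean, 173 CPM ± 259 (n = 5) in Neut PMN-MDSC, came from 19 UMIs in 2 of 5 sums, at 581 CPM in a MET sample and 282 CPM in a core, with 0 in the other 3. NK Xcl1 held 129.5 CPM ± 157 (n = 6), T CD8 Gzmk 88.2 CPM ± 116 (n = 45, detected in 29 sums) and T Treg 81.1 CPM ± 117 (n = 7). Mac Cd9 had 2 UMIs over 11 sums (1.53 CPM ± 3.59), and DC cDC1 had none in 5 sums but 31 UMIs (44.1 CPM) over all its 254 cells. At these counts an order between cell types was not detectable for Nlrc5.

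**Figure D3:**
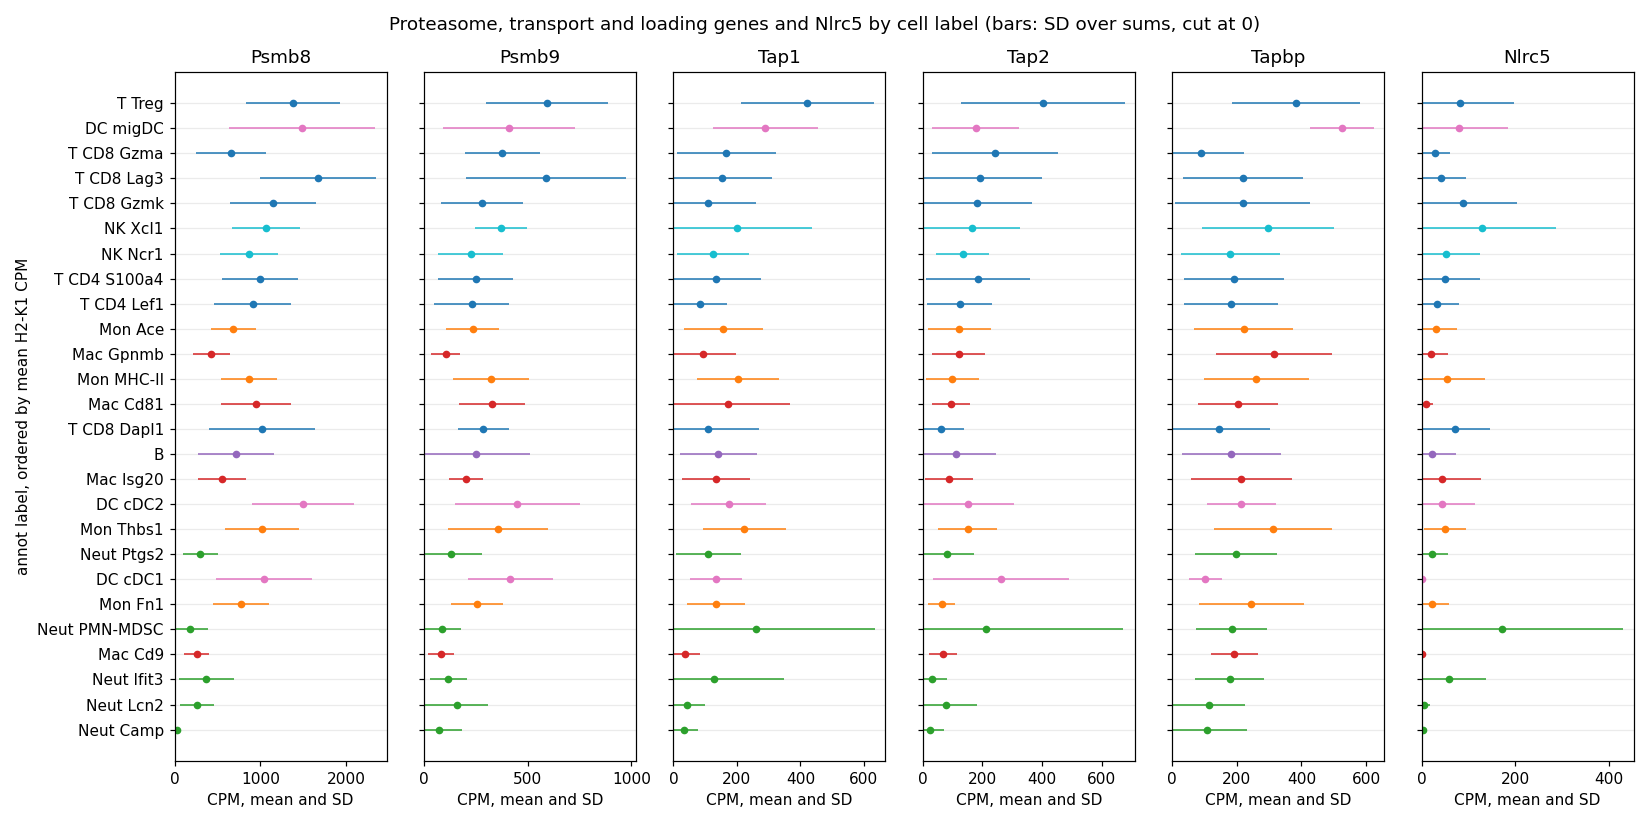
Mean levels of Psmb8, Psmb9, Tap1, Tap2, Tapbp and Nlrc5 in CPM by immune cell type, in the order of mean H2-K1 and coloured by lineage, with bars of 1 SD over sums that end at 0. Psmb8 reaches 1672 CPM in T CD8 Lag3 and 31.6 CPM in Neut Camp, while the bars of Tap1, Tap2, Tapbp and Nlrc5 overlap between most neighbours.

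Cell type accounted for far more of the variance than tissue for the abundant members. Of the variance of log2(CPM + 1) over the 510 sums, cell type alone took 67.2% for H2-K1, 49.98% for B2m, 46.0% for Psmb8 and 39.3% for H2-D1, and tissue alone 6.68%, 6.01%, 4.66% and 6.17%. For the sparse members the share of cell type was 19.1% for Psmb9, 14.1% for Tap1, 13.1% for Tap2, 11.3% for Nlrc5 and 8.74% for Tapbp. The share of tissue for these was 5.81%, 6.54%, 4.36%, 4.97% and 6.16%, in the same order. Types and tissues share libraries and are not balanced, and there are more types than tissues, so these shares are a description.

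Across the means of the 26 cell types, the members closest to each other were Psmb8 and Psmb9 (Pearson's r = 0.912) and H2-K1 and B2m (r = 0.905), and H2-K1 also followed Psmb8 (r = 0.838). H2-D1 followed H2-K1 less closely (r = 0.557), and the lowest of all pairs was Tap2 with Nlrc5 (r = 0.159). Among 3571 genes with a mean of at least 50 CPM over the types, the patterns most like the mean pattern of the 9 members were those of Szrd1 (r = 0.896), Runx3, a transcription factor of cytotoxic lymphocytes (r = 0.869), Psmb10, the remaining immunoproteasome subunit (r = 0.860), Gm7776 (r = 0.859) and the interferon-induced gene Epsti1 (r = 0.853). These coefficients are over cell types that share libraries and depth. The mean standardised level of the members was highest in T Treg (1.33) and DC migDC (1.30) and lowest in Neut Camp (-2.59).

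Outside the immune types, the 2 sums named Tumor held H2-K1 at 1118 CPM ± 212, H2-D1 at 5114 CPM ± 1208 and B2m at 4772 CPM, with an H2-D1 to H2-K1 ratio of 4.49 over the cells of both sums, nearer to that of neutrophils than of T cells. The 4 sums named Erythrocytes held H2-K1 at 1590.2 CPM ± 425, in the range of the immune cell types and beside the leukocyte genes given above.

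To find out whether the members differed between tissues, each cell type with at least 3 sums in both groups was tested with edgeR's quasi-likelihood test across all genes, with Benjamini-Hochberg adjustment and a threshold of 0.05. Over 6 comparisons and 50 such fits, 266 of 450 pairs of member and cell type passed the filter on low counts, and 2 passed the test, where 0.951% of all 56660 gene tests of these fits were called. A member that did not pass the filter in a cell type was not tested there. Where the groups of a member are said below to be separate or not to overlap, the share of all genes for which this held is not given.

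In Pre-MET lungs, sampled before metastases were seen, most members had lower values than in Normal lungs and few of these differences passed. Of the 45 tests in Pre-MET against Normal lungs, 1 was called, and edgeR called 0.194% of all 10305 gene tests of this comparison. An unadjusted p below 0.05 was reached in 11 of the 45 tests and in 1226 of all 10305 gene tests with edgeR. DESeq2 called 5 of the 45 tests and 1.45% of all gene tests. The median log2 fold change of the members was -0.42, with 35 of 45 below 0, against a median of -0.03 and 51.5% below 0 over all genes. This count is a description, since members of a mouse are measured in the same cells.

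The call was H2-K1 in the monocytes Mon Ace, with 2526, 2965 and 3643 CPM in Normal lungs and 1206, 1592 and 1622 CPM in Pre-MET lungs. The groups did not overlap, and H2-K1 fell by 1.11 on the log2 scale (SE 0.22, adjusted p = 0.039, edgeR), where 0.371% of genes of this cell type were called. B2m in the same cells was 10196, 10317 and 9009.8 CPM in Normal and 6620.1, 7357 and 5441 CPM in Pre-MET lungs, a log2 fold change of -0.67 that did not pass with edgeR (adjusted p = 0.107) and passed with DESeq2 and, without the filter on low counts, with edgeR at -0.69 (adjusted p = 0.0262). The H2-K1 call was lost in 6 of 11 alternative settings, on leaving out mouse 9 or mouse 10 of Pre-MET or any of the 3 Normal mice and in cells with at least 1000 UMIs, with log2 fold changes between -1.51 and -0.97 throughout.

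In the monocytes Mon Fn1 the light chain B2m was 7772, 7819.5 and 9349 CPM in Normal and 4484, 6005 and 4139 CPM in Pre-MET lungs (log2 fold change -0.77, adjusted p = 0.0946), and H2-D1 was 4043, 3977 and 3372 against 2453, 2828 and 1693 CPM (log2 fold change -0.72). Both groups were separate for these genes. Neither gene passed with edgeR, where 0.336% of the genes of this cell type were called, and both passed with DESeq2. On leaving out Pre-MET mouse 8, B2m passed with edgeR at -0.99 (adjusted p = 0.0366). In T CD8 Gzmk, H2-K1 was 2751, 2545 and 2551 CPM in Normal and 912, 1707 and 1342 CPM in Pre-MET lungs (log2 fold change -1.22), and H2-D1 was 3305, 2888 and 2617 against 639, 1406 and 1845 CPM (log2 fold change -1.36, adjusted p = 0.105). Neither gene in T CD8 Gzmk was called by either tool with the filter on low counts, and without it edgeR called both, H2-K1 at -1.76 (adjusted p = 0.00255) and H2-D1 at -1.90 (adjusted p = 0.000366). B2m of the naive-like T CD4 Lef1 was 6791, 6709 and 6747 CPM against 4148, 5503 and 4219 CPM (log2 fold change -0.57, adjusted p = 0.176, edgeR), and it was called by DESeq2 and, without the filter, by edgeR at -0.86 (adjusted p = 0.000244).

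**Figure D4:**
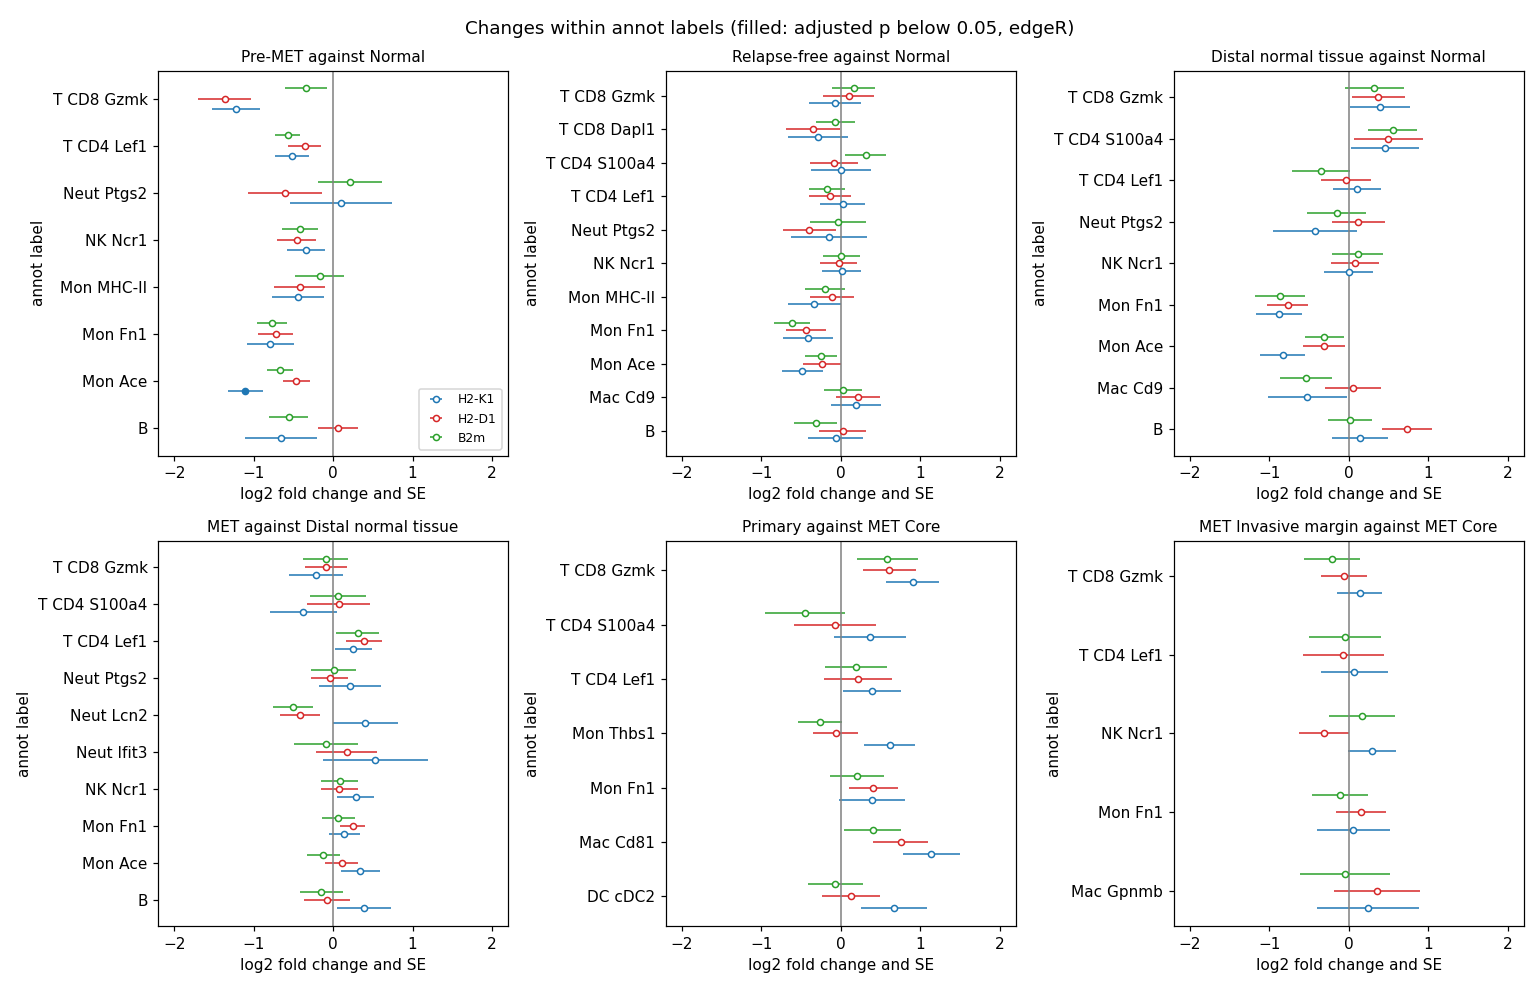
Log2 fold changes of H2-K1, H2-D1 and B2m (edgeR) in each tested cell type for the 6 comparisons between tissues, with bars of 1 standard error and filled points where the adjusted p was below 0.05. H2-K1 in Mon Ace of Pre-MET against Normal lungs, at -1.11, is the single filled point.

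Summed over all monocytes of a lung, which raises the counts but mixes cell types, 3 members fell in Pre-MET against Normal lungs, where 4.32% of the genes tested in monocytes were called. H2-K1 was 1936, 2343 and 2612 CPM in Normal and 909.6, 1206 and 822 CPM in Pre-MET lungs, and fell by 1.26 on the log2 scale (SE 0.18, adjusted p = 0.000679, edgeR). B2m was 8785, 8471 and 9299 against 5095, 6306 and 4425 CPM and fell by 0.78 (SE 0.15, adjusted p = 0.00813, edgeR). H2-D1 was 4548, 4451 and 4047 against 2716, 3017 and 2111 CPM and fell by 0.77 (SE 0.16, adjusted p = 0.0128, edgeR). All 3 genes were separate between the groups in every mouse, which is a description of 3 against 3 sums and not a test. Psmb8 (-0.30) and Psmb9 (-0.16) in the same sums did not pass.

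The makeup of the monocytes moved with this result. Mon Ace, the type high in H2-K1, made up 59.0% ± 4.14 (SD, n = 3) of monocytes in Normal and 22.6% ± 4.01 (n = 3) in Pre-MET lungs, and Mon Fn1, in which H2-K1 is lower, 23.8% ± 0.944 and 69.6% ± 5.65. Without Mon Ace cells none of the 3 calls passed with edgeR, at -0.94 for H2-K1 (adjusted p = 0.0759), -0.72 for B2m (adjusted p = 0.0647) and -0.75 for H2-D1 (adjusted p = 0.117). Without Mon Fn1 cells H2-K1 passed at -0.95 (adjusted p = 0.0323, edgeR), while B2m was at -0.53 (adjusted p = 0.225) and H2-D1 at -0.44 (adjusted p = 0.269). The H2-D1 call was also lost without Pre-MET mouse 9 or 10 or Normal mouse 1 or 2, and the B2m call without Pre-MET mouse 10 or Normal mouse 1. T cells summed in the same way gave H2-K1 at -0.77 (adjusted p = 0.0525, edgeR), and the difference between monocytes and T cells was itself tested: none of the 9 members passed with edgeR, where 0.337% of all genes did. An unadjusted p below 0.05 was reached by H2-K1 at -0.48 (p = 0.0291, adjusted p = 0.507, edgeR) and by B2m at -0.32 (p = 0.0137, adjusted p = 0.432, edgeR). Without a filter these differences were -0.11 for H2-K1 (p = 0.587, edgeR) and 0.05 for B2m (p = 0.647, edgeR), and in cells with at least 1000 UMIs -0.49 (p = 0.0906, edgeR) and -0.08 (p = 0.663, edgeR). With RLE size factors they were larger, at -0.62 for H2-K1 (p = 0.00600, adjusted p = 0.349, edgeR), -0.45 for B2m (p = 0.000602, adjusted p = 0.103, edgeR) and -0.37 for H2-D1 (p = 0.0241, adjusted p = 0.508, edgeR). In none of these settings did the difference between monocytes and T cells pass for H2-K1 or B2m.

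Relapse-free lungs, in which no metastasis was seen after resection, gave no call against Normal lungs. None of 71 tests was called with edgeR or DESeq2, and 0.00957% of all gene tests were called with edgeR and 0.0287% with DESeq2. With edgeR, 2 of the 71 tests and 1034 of all 20892 gene tests had an unadjusted p below 0.05. H2-K1 ranged between -0.49 and 0.19 on the log2 scale over 11 cell types, with a median standard error of 0.33, and B2m between -0.61 and 0.31.

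In Distal normal tissue of mice with metastases, none of the 46 tests against Normal lungs was called with edgeR, which called 3.57% of all gene tests. With edgeR, 6 of the 46 tests and 1310 of all 8679 gene tests had an unadjusted p below 0.05. DESeq2 called 2 of the 46 and 5.17% of all gene tests. The lowest log2 fold changes of H2-K1, H2-D1 and B2m were in Mon Fn1, in which 7.03% of genes were called. H2-K1 there ran from 469 over a median of 739 to 1223 CPM in 13 Distal samples, against 941, 1585 and 1782 CPM in Normal lungs (log2 fold change -0.87, adjusted p = 0.0610, edgeR), so that the groups overlapped. H2-D1 ran from 1364 over 2097 to 3372 CPM against 4043, 3977 and 3372 CPM (log2 fold change -0.77, adjusted p = 0.0607, edgeR). DESeq2 called both.

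Over all monocytes, H2-K1 ran from 586 over 968 to 1770.5 CPM in the 14 Distal samples, below the 1936, 2343 and 2612 CPM of Normal lungs, and fell by 1.25 on the log2 scale (SE 0.27, adjusted p = 0.00172, edgeR). H2-D1 ran from 1909.9 over 2391 to 3658 CPM, below the 4047 to 4548 CPM of Normal lungs, and fell by 0.87 (SE 0.26, adjusted p = 0.0348, edgeR). B2m did not pass (-0.91, adjusted p = 0.0604, edgeR). In these monocyte sums 5.64% of genes were called, and the comparison uses the same 3 Normal lungs as the Pre-MET comparison. Mon Ace were 18.9% ± 9.83 (SD, n = 14) of monocytes in Distal tissue. The H2-D1 call was lost on leaving out Normal mouse 1, 2 or 3. Without Mon Ace cells H2-K1 passed at -0.96 (adjusted p = 0.0277, edgeR) and H2-D1 did not at -0.81 (adjusted p = 0.0534), and without Mon Fn1 cells neither passed, with H2-K1 at -0.78 (adjusted p = 0.201, edgeR) and H2-D1 at -0.45.

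Between MET sections and Distal normal tissue no member was called within a cell type: none of 38 tests passed with edgeR or DESeq2, none had an unadjusted p below 0.05 with edgeR and 1 had with DESeq2, and either tool called 0.0208% of all gene tests. In the test of monocytes against T cells for this comparison, none of 6 members and 0% of genes passed with edgeR, and 1 member had an unadjusted p below 0.05, Psmb9 at 0.82 (p = 0.0230, adjusted p = 0.759, edgeR). Over 10 cell types H2-K1 lay between -0.38 and 0.53 and B2m between -0.50 and 0.31 on the log2 scale. With the mouse as a block, as 13 mice gave both tissues, again none was called. No macrophage type had 3 sums in both tissues, so none could be tested.

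Macrophages of all types summed per sample differed between both tissues, with 9 MET and 6 Distal sums. The fold changes below were from a fit without the mouse as a block, though 5 mice gave both sums. H2-K1, H2-D1 and B2m were also called with that block. H2-K1 ran from 1126 over 1564 to 2264 CPM in MET and from 215 over 441 to 862 CPM in Distal tissue, without overlap, and rose by 1.90 on the log2 scale (SE 0.35, adjusted p = 0.00153, edgeR). H2-D1 ran from 3763 over 4267 to 5315 CPM against 1075 over 1834 to 2887 CPM, also without overlap, and rose by 1.34 (SE 0.29, adjusted p = 0.00508, edgeR). B2m rose by 1.21 (SE 0.33, adjusted p = 0.0178, edgeR) with overlapping groups, 3062 to 10030.1 CPM in MET and 2273 to 6794 CPM in Distal tissue. Psmb9 rose by 2.14 (SE 0.63, adjusted p = 0.0289, edgeR), on 205 UMIs in MET and 6 UMIs in Distal sums. It passed the filter on low counts only through the MET sums, 6 of 9 of which reached the level of the filter against 0 of 6 Distal sums, with at most 2 UMIs each, so the size of this fold is uncertain. The Psmb9 call was lost in 6 of 10 alternative settings, without Distal mouse 23, 26, 28, 30 or 33 and in cells with at least 1000 UMIs, with an adjusted p of up to 0.299 (edgeR). The fits with the mouse as a block and with batch as a covariate are not among these 10, since Psmb9 was not tested there. The B2m call was lost in 5 of 15, without Distal mouse 26, 28, 30 or 33 and in cells with at least 1000 UMIs, with an adjusted p of up to 0.0772 (edgeR). In the 5 mice with both sums, H2-K1, H2-D1 and B2m were higher in MET in 5 of 5 and Psmb9 in 4 of 5. Of the members that were not called, Nlrc5 was higher in 5 of 5, Tap2 and Tapbp in 4 of 5 and Tap1 and Psmb8 in 3 of 5. These counts thus do not set the called members apart. The level of Psmb8, 208 to 1126 CPM in MET and 287 to 1077 CPM in Distal tissue, overlapped widely. In these sums 9.54% of the 1289 genes tested were called, and the 6 Distal sums held 134776 UMIs in all against 1334688 in the 9 MET sums.

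Here too the makeup moved with the result. Mac Cd9, the macrophages lowest in class I, were 63.6% ± 25.2 (SD, n = 6) of macrophages in Distal tissue and 7.65% ± 8.88 (n = 9) in MET, while Mac Isg20 were 7.19% ± 4.53 and 39.2% ± 18.0 and Mac Gpnmb 16.9% ± 18.1 and 33.5% ± 8.57. A fit without Mac Cd9 was not possible, because 1 Distal sum was left. Over all cells of a type, with exact Poisson intervals that cover counting error only, H2-K1 was 417 CPM (95% interval 297 to 571, 71 cells) in Mac Cd9 of Distal tissue and 551 CPM (435 to 688, 46 cells) in those of MET. In Mac Cd81 it was 1789 CPM (1445 to 2189, 22 cells) and 1870.2 CPM (1705 to 2047, 96 cells). For these types the intervals of Distal and MET cells overlapped. They did not overlap for H2-K1 in Mac Gpnmb, at 736 CPM (476 to 1087, 19 cells) and 1809.7 CPM (1702 to 1923, 171 cells), or in Mac Isg20, at 800.0 CPM (501 to 1211, 7 cells) and 1385 CPM (1277 to 1501, 208 cells). The other genes did not follow one direction: H2-D1 of Mac Isg20 was 4364 CPM (3618 to 5218) in Distal tissue and 3283 CPM (3114 to 3458) in MET, and B2m 9055 CPM (7965 to 10252) and 7214 CPM (6964 to 7472). These cells come from several mice with few cells each, and no test was made on them.

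**Figure D5:**
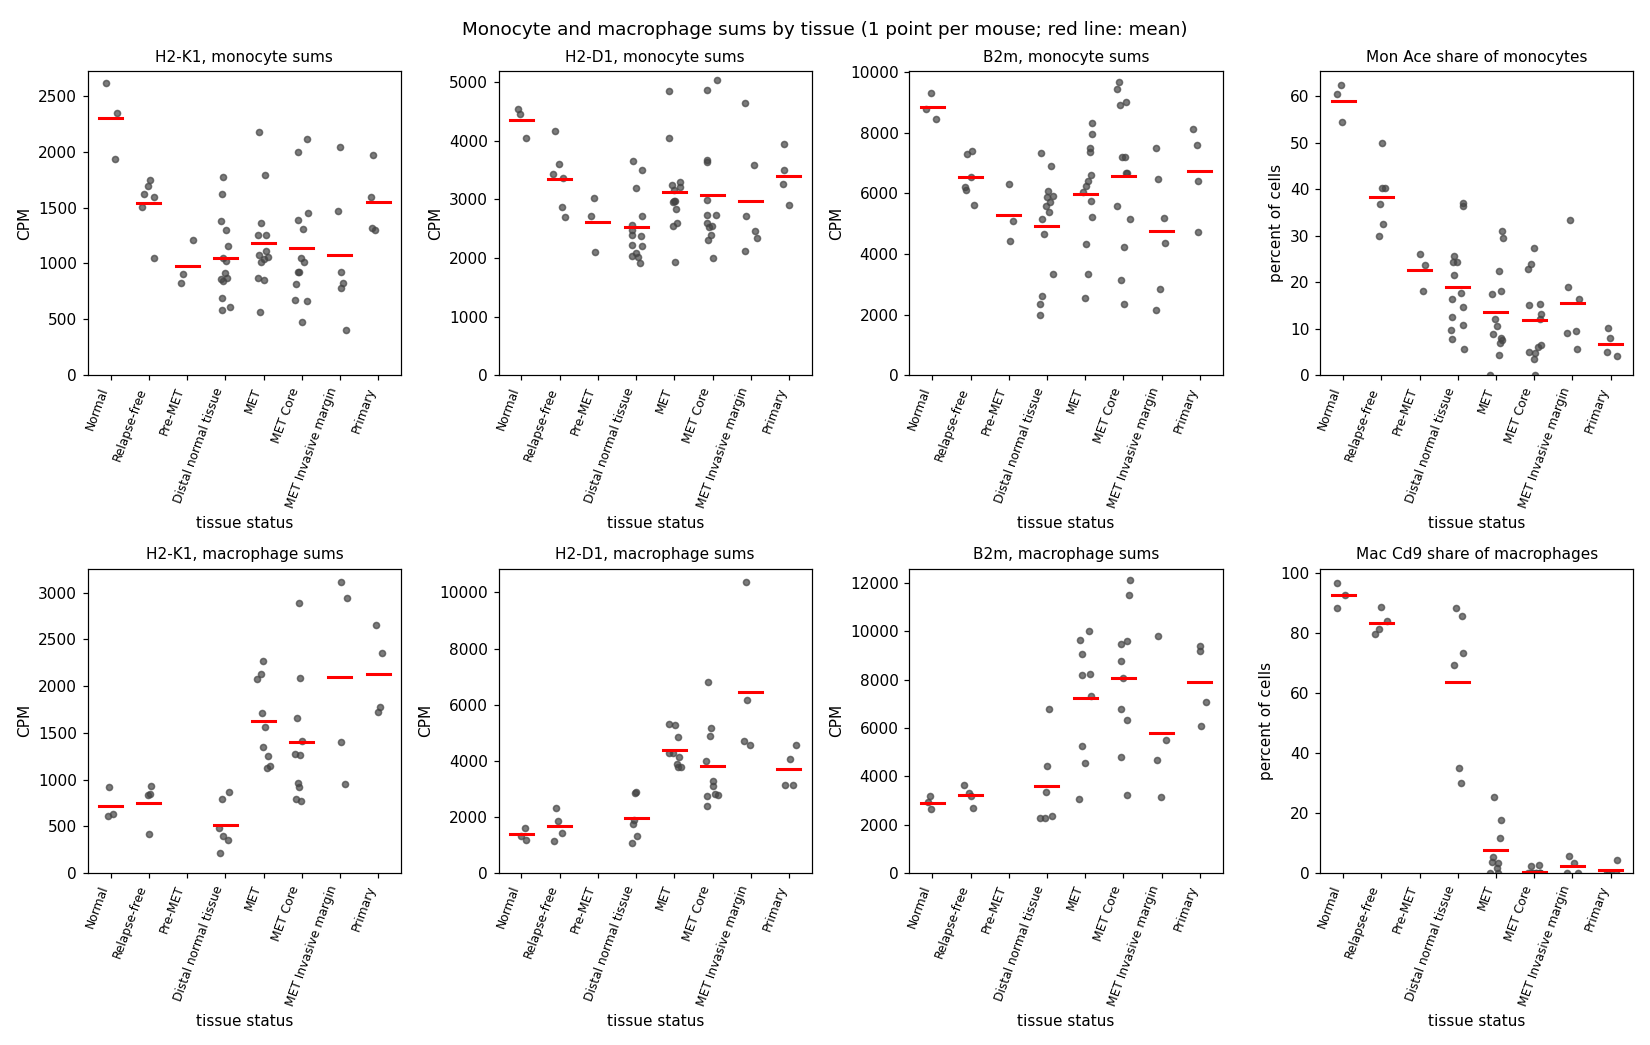
Levels of H2-K1, H2-D1 and B2m in CPM in all monocytes (upper row) and all macrophages (lower row) by tissue, beside the percent of Mon Ace among monocytes and of Mac Cd9 among macrophages, with 1 point per mouse and a red line at the mean. H2-K1 does not overlap between Normal and Pre-MET monocytes or between MET and Distal macrophages, and the mean share of Mac Cd9 is 63.6% in Distal tissue and 7.65% in MET.

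Primary tumors were compared with metastasis cores in 7 cell types. Of 44 tests of members, 1 was called with edgeR, which called 2.18% of all gene tests. With edgeR, 5 of the 44 tests and 1383 of all 9431 gene tests had an unadjusted p below 0.05. DESeq2 called 2 of the 44 and 4.49% of all gene tests. The median log2 fold change of the members was 0.38 against 0.13 over all genes, so that the changes below are to be read against a shifted median. H2-K1 was above 0 in 7 of 7 cell types, between 0.36 and 1.14.

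The call was Tap1 in the macrophages Mac Cd81, in which 8.25% of genes were called. Tap1 was at 124, 267, 246 and 241 CPM in the 4 Primary tumors, from 373 UMIs of 1802580, and at 0 in the 3 cores, with no UMI of 60438 (adjusted p = 0.0185, edgeR). Tap1 passed the filter on low counts only through the Primary sums. With a floor of 3 counts over the 3 cores pooled, 49.6 CPM, the pooled level of the Primary tumors was at least 4.17-fold higher. This bound covers counting error only and not the spread between mice. Without Primary mouse 9 or mouse 38, Tap1 no longer passed the filter and was not tested. The 2 MET sums of Mac Cd81 held Tap1 at 67.5 and 603 CPM. In the same cells H2-K1 was 1856, 2786, 2259 and 1807 CPM in Primary tumors and 1587, 977 and 1309 CPM in cores, with separate groups and a log2 fold change of 1.14 (SE 0.36, adjusted p = 0.0578, edgeR) that DESeq2 called. Tapbp, at 249.98, 419, 307 and 151 CPM against 113, 132 and 0 CPM, did not pass (adjusted p = 0.137, edgeR). These Primary and core sums share no sequencing batch and differ in depth, so batch, depth and group cannot be told apart.

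Between invasive margins and cores no member was called. None of 22 tests in 5 cell types was called with edgeR or DESeq2, none had an unadjusted p below 0.05 with edgeR and 1 had with DESeq2, and 0% of all 2542 gene tests were called by either tool. H2-K1 lay between 0.06 and 0.30 on the log2 scale and B2m between -0.21 and 0.16, with median standard errors of 0.42 and 0.41.

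Other genes of the pathway were counted in the same fits. Of the other class I heavy chains (H2-Q, H2-T and H2-M genes), 1 of 68 tests within cell types was called, H2-M3 in Mac Cd81 of Primary tumors (adjusted p = 0.0457, edgeR), with 232 UMIs there and none in the cores, so that it too passed the filter only through the Primary sums. Of the other processing and loading factors 0 of 134 tests were called by edgeR with 8 at an unadjusted p below 0.05, of the constitutive proteasome subunits 0 of 57 with 2, and of the regulators, such as Irf1 and Rfx5, 0 of 87 with 11. DESeq2 called 2 tests of the other heavy chains, 0 of the processing factors, 0 of the constitutive subunits and 4 of the regulators. The share called over all genes is that given above for the 6 comparisons. In the lineage sums, where edgeR called 1.59% of all 60350 gene tests, 2 of 72, 1 of 131, 0 of 49 and 2 of 97 tests of these lists were called by edgeR, the constitutive subunits also with 0 at an unadjusted p below 0.05. H2-Q7 fell with the classical heavy chains in Pre-MET monocytes by 2.13 (adjusted p = 0.00810, edgeR) and in Distal monocytes by 1.73 (adjusted p = 0.0326, edgeR). In the Pre-MET comparison it reached the level of the filter in 3 of 3 Normal and 2 of 3 Pre-MET sums, on 92 and 52 UMIs. It was thus tested there only with the help of the group where it is high. In the Distal comparison it did so in 3 of 3 Normal and 5 of 14 Distal sums, on 92 and 183 UMIs. The lower share of Mon Ace given above lies in the same monocyte sums, and a fit of H2-Q7 without a monocyte type is not given here. Tap1 was at 1.69 in all T cells of Primary tumors against cores (adjusted p = 0.0515, edgeR), in which 0.592% of genes were called. Psmb10, the immunoproteasome subunit outside the list, rose by 2.50 in the macrophage sums of MET against Distal tissue (adjusted p = 0.00553, edgeR), on 340 UMIs in MET and 7 UMIs in Distal sums. It reached the level of the filter on low counts in 9 of 9 MET and 1 of 6 Distal sums, with at most 3 UMIs in a Distal sum, so it too was tested through the group where it is high and its fold is uncertain. The shift in the share of Mac Cd9 given above lies in the same sums, and its part in the result was not tested.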

How the data were processed

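Each sorted cell occupied 1 well of a 384-well plate, and transcripts were read from the 3′ end. The authors mapped reads to mm10 with HISAT, excluded reads with multiple mapping positions, counted exonic UMIs per gene with overlapping genes joined, discarded cells under 500 UMIs and annotated the rest by metacell clustering. The submitters' processing notes also name bcl2fastq 2.15.0.4. The deposited values are raw UMI counts per gene and well, with an annotation of wells that also lists the deposited UMI count of each well. No well identifier occurred on more than 1 plate (0 shared). The 92 rows of ERCC spike-in controls held 0 UMIs (0% of the total) and were left out.

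Counts were summed per mouse, tissue and annotated cell type (at least 10 cells), names of types being printed with spaces between their parts. Sums were the replicates, and the mice are separate animals. Groups with at least 3 sums were compared with edgeR 4.0.16 (quasi-likelihood F test after TMM scaling and the filterByExpr minimum on counts, with p-values adjusted after Benjamini-Hochberg over all genes tested and a threshold of 0.05) under R 4.3.3, with DESeq2 1.42.0 and limma 3.58.1 loaded for alternatives; tables used Python 3.11.15, numpy 2.4.6, scipy 1.17.1 and pandas 2.3.3, and figures matplotlib 3.10.9. Levels are CPM, and ratios of genes are log2 ratios of UMIs with 0.5 added to each. Scripts were tested on simulated counts. Positions are from GENCODE vM21, and promoter windows (250 bases before to 50 after the start, 7 of 9 genes matched) from RefSeq on GRCm38.p6.

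The members and gene lists were chosen with earlier results of these data known. Named genes were all 9 members, the genes of 4 lists (other heavy chains, other processing and loading factors, constitutive proteasome, regulators) that were called (1 gene of these lists is not reported here, though counts include it), and the 5 genes most like the mean pattern of the members. Alternatives were size factors by RLE, DESeq2, no filter, at least 20 cells per sum, cells with at least 1000 UMIs, batch as a covariate, the mouse as a block, sums over lineages and leaving out 1 mouse at a time. Within cell types the mice left out were those of the Normal, Pre-MET, Relapse-free, Primary and margin groups. In lineage sums they were those of Normal and Pre-MET for monocytes and of Distal tissue for macrophages. No MET or core mouse was left out. The same alternatives for the calls in lineage sums, leaving out 1 cell type there, and pooling all cells of a type, were added after seeing the data. Where a group pair shares mice the design is paired: in Mon Fn1, deviations of MET and Distal sums of the same mouse correlated with a mean r of 0.22 over 12 pairs (-0.02 to 0.57; other mice -0.0042), and in T CD8 Gzmk those of margin and core with 0.48 over 4 pairs (other mice -0.03). The data were not clustered again, and doublets were not called here.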

Additional observations from a re-analysis of the deposited data

Results flagged for a closer look

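Signals came from wells outside the comparisons. In the 592 wells left without a cell, B2m had 55 UMIs, above the 3 counts that a count of 0 allows, out of 8490 UMIs in all, with a median of 8 UMIs per well, and H2-K1 had 11 and H2-D1 18. In the 128 wells with at least 500 UMIs and no annotation, B2m was at 3335 CPM, with no control wells to set it against. No sample stood apart in the 9 groups checked, and no member passed a test of the difference between monocytes and T cells.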

How the results depend on the processing

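Calls within cell types depended on the tool and the mice. In Pre-MET against Normal lungs the 1 call became 5 with DESeq2, 5 without a filter, 0 in cells with at least 1000 UMIs, 3 in lineage sums and 0 to 2 on leaving out a mouse. In Distal tissue against Normal lungs 0 became 2 with RLE size factors, 2 with DESeq2 and 2 in lineage sums. In MET against Distal tissue 0 became 4 in lineage sums and stayed 0 with the mouse as a replicate block. In Primary tumors against cores 1 became 2 with DESeq2, 2 without a filter, 0 with at least 20 cells, 0 with at least 1000 UMIs, 0 in lineage sums and 0 to 1 on leaving out a Primary mouse. The 1 call, Tap1 in Mac Cd81, was not tested with at least 20 cells or with at least 1000 UMIs. Relapse-free lungs and margins gave 0 under each setting that could be fitted. The 3 calls in Pre-MET monocyte sums became 0 without Mon Ace, 1 without Mon Fn1 and 1 to 3 on leaving out a mouse. The 2 in Distal monocyte sums became 1 without a filter, 1 without Mon Ace, 0 without Mon Fn1 and 1 on leaving out any of the 3 Normal mice. The 4 in MET macrophage sums became 2 with at least 1000 UMIs, 3 with the mouse as a replicate block, 3 with batch as a covariate, 6 without a filter and 2 to 4 on leaving out a Distal mouse. The cause was not tested. No called value changed its direction. Of the differences between monocytes and T cells, none of them called, B2m, H2-D1, Psmb8 and Tapbp turned positive without a filter in Pre-MET against Normal lungs (0.05, 0.14, 0.24 and 0.31). In MET against Distal tissue, B2m, H2-D1 and Psmb8 turned negative in cells with at least 1000 UMIs (-0.07, -0.17 and -0.14). H2-K1 and H2-D1 in macrophage sums passed in 15 of 15 alternatives, none of which left out a MET mouse, with H2-K1 between 1.53 and 2.48. A fit without Mac Cd9 or with at least 20 cells was not possible there, nor one of margins with at least 1000 UMIs. T Treg stayed highest for H2-K1 and B2m with at least 20 cells and with at least 1000 UMIs, while the highest type became DC migDC for Tap1 with at least 20 cells and for Nlrc5 under both, T Treg for Psmb8 with at least 20 cells and T CD8 Lag3 for Psmb9 with at least 1000 UMIs.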
